A study of Mus musculus with 6 samples.

Results

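The genes described here are 10 genes tied to Wnt signalling around the central vein of the liver lobule, out of 56350 gene IDs in the count table. They were taken by name: 5 Wnt feedback targets (Axin2, Lgr5, Rnf43, Znrf3 and Tbx3), 4 pericentral effector genes (Glul, Slc1a2, Rhbg and Lect2) and 1 pericentral signal (Rspo3). All 10 passed the filter on low counts. RNA sequencing counts came from mouse liver in 3 samples labelled wild-type (WT) and 3 labelled Atg14 hepatocyte-specific knockout (HepKO), Atg14 being a subunit of the kinase complex that starts autophagosomes. The labels used here do not give the Cre driver, strain, age, sex, diet or whether each sample was a separate animal, so p-values measure the spread between samples that may be technical. The tissue is whole liver, in which a knockout confined to hepatocytes leaves the gene intact in the other cells, and fewer cells of a type cannot be told apart from less RNA per cell.

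Wnt ligands bind Frizzled receptors and LRP co-receptors, which spares β-catenin from its destruction complex and lets it activate genes with TCF factors. In the liver, endothelial cells of the central vein secrete Wnt ligands and R-spondin, and the hepatocytes next to the vein answer by expressing glutamine synthetase and other pericentral genes, while periportal genes are held down there. Several target genes feed back on the pathway: Axin2 rebuilds the destruction complex, Rnf43 and Znrf3 remove Frizzled from the membrane, and Lgr5 binds R-spondin and restrains those ligases.

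Libraries held 33145684 to 48951937 counts. Atg14 gave 620 to 796 counts in WT libraries, while HepKO libraries gave 313 to 379. HepKO replicate 1 stood apart in sex-linked genes, with 30377 Xist counts and 3 to 6 counts for each of 4 Y-linked genes, where the other 5 libraries had 2 to 22 Xist counts and 571 to 3482 counts per Y-linked gene. HepKO replicate 1 therefore differed from the rest of both groups in these genes. No WT library had this pattern, so it is not balanced between the groups. Values without HepKO replicate 1 are given for part of the results. Of hepatocyte markers 6 were tested, and their summed level was 86211 to 109813 CPM (counts-per-million) in WT and 39097 to 48366 CPM in HepKO. Most of each sum was Alb, named after its values were seen (68825 to 90310 CPM in WT and 29488 to 36371 CPM in HepKO). CPM are scaled by the trimmed mean of M-values (TMM). Under TMM the median log2 fold change (HepKO over WT) of the 16051 genes tested was 0.01, and under plain library totals it was 0.52, and each fold below is relative to TMM unless library totals are named. The Atg14 log2 fold change was -1.54 under TMM.

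Upstream windows of 4 members are shown because these genes took different courses in HepKO: Axin2 rose, Glul and Slc1a2 fell and Lect2 gave no call. Each is the 250 bases before a RefSeq transcript start (GRCm38.p6), 5′ to 3′ on the gene's strand, and capitals mark matches to the core recognised by TCF/LEF factors. The core was searched on both strands as ATCAAAG or the same 7 letters with AA, TT or TA in place of the leading AT, so only 1 form can match at a position. RefSeq windows were held for 5 of the 10 members, Rnf43 being the remaining one, with 2 windows and no match.
Axin2, chr11:108920099-108920348, plus strand: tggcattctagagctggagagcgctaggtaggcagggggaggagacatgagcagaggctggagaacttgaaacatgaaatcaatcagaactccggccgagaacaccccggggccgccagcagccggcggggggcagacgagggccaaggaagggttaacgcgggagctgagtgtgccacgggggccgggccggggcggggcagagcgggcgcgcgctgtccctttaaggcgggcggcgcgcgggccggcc
Glul, chr1:153899679-153899928, plus strand: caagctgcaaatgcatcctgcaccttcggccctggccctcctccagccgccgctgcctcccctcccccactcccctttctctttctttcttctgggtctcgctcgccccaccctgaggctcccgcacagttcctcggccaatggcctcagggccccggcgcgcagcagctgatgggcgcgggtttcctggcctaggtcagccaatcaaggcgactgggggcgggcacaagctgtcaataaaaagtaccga
Slc1a2, chr2:102706188-102706437, plus strand: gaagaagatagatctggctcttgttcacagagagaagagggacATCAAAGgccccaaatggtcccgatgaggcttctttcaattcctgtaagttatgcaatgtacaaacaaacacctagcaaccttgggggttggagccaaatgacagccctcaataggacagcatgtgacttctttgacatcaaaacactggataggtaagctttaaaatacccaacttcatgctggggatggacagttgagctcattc
Lect2, chr13:56548539-56548788, minus strand: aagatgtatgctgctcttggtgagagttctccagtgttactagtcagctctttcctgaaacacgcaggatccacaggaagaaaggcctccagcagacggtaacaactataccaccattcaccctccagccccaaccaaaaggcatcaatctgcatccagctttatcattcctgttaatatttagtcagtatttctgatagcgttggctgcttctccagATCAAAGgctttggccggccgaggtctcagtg
Slc1a2 held ATCAAAG with its first base 207 bases before the start, and Lect2 held ATCAAAG 32 bases before it. The Slc1a2 window lies inside the gene's full span, at an internal start. Of 32851 such windows of all genes, 14.8% held a match. No match was found in the Axin2 and Glul windows, which says only that these letters are not in them.

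The Wnt feedback targets did not move as a group. Axin2 rose in HepKO under the test, while Lgr5, Rnf43, Znrf3 and Tbx3 gave no call. With a false discovery rate (FDR, Benjamini-Hochberg over all genes) under 0.05 in edgeR's quasi-likelihood test as the call, 38.2% of tested genes and 4 of the 10 members were called (Axin2, Glul, Slc1a2 and Rhbg), a share near that background. Without HepKO replicate 1 it was 3 members (Axin2 was lost) and 33.9% of genes, 16.3% higher and 17.5% lower. Under library totals it was 6 members (Znrf3 and Rspo3 were added) and 52.2% of genes, 46.4% higher and 5.84% lower. DESeq2 called 40.9% of genes and limma-voom 38.2%, each with Lgr5 as a further member. The 3 libraries of each group did not overlap for 53.5% of tested genes and for 5 of the 10 members, the same 4 and Lgr5. The median log2 fold change of the 5 feedback targets was -0.29, against 0.01 over all genes, and 0.21 against 0.52 under library totals.

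Axin2, the scaffold of the destruction complex and a common readout of β-catenin activity, lies on chromosome 11 (108920349 to 108950783, plus strand, GRCm38). It had 7.20, 10.7 and 6.38 CPM in WT replicates 1 to 3 and 14.3, 13.2 and 11.4 CPM in HepKO replicates 1 to 3. Every HepKO library lay above every WT library, with WT replicate 2 the closest. Axin2 rose 1.60-fold (log2 fold change 0.68 ± 0.21 SE, n = 3 each, FDR 0.0356). The call held without WT replicate 2 (FDR 0.00667) and was lost with any other library left out: FDR was 0.108 without WT replicate 1, 0.113 without WT replicate 3, and 0.0978, 0.0913 and 0.0537 without HepKO replicates 1, 2 and 3, with log2 fold changes from 0.55 to 0.97 over all 6 omissions. Under library totals it was 1.19 (FDR 0.00335).

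Lgr5, the R-spondin receptor, lies on chromosome 10 (115450311 to 115587780, minus strand). Its levels were 9.22, 7.69 and 7.85 CPM in WT against 5.29, 4.44 and 6.78 CPM in HepKO. Its HepKO libraries were all below its WT libraries, so its values lay in the direction opposite to those of Axin2. The log2 fold change was -0.59 ± 0.20 (FDR 0.0505), at the edge of the threshold. Lgr5 passed it with DESeq2 (FDR 0.0326), limma-voom (0.0378), no filter (0.0449) and without HepKO replicate 3 (log2 fold change -0.77, FDR 0.0299). It did not pass when any other single library was left out (FDR 0.0898 to 0.132, and 0.107 without HepKO replicate 1). Nor did it pass with replicate number as a block (0.0746) or with a filter of 1 CPM (0.0550). Under library totals the log2 fold change was -0.08 (FDR 0.769).

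Rnf43 and Znrf3 are related membrane ubiquitin ligases that lower Frizzled at the cell surface, both on chromosome 11 (87662722 to 87735539, plus strand, and 5276324 to 5444847, minus strand). The WT libraries held 28.7, 29.1 and 20.9 CPM of Rnf43 and the HepKO libraries 24.8, 20.4 and 18.9 CPM (log2 fold change -0.29 ± 0.16, FDR 0.188). For Znrf3 the levels were 16.4, 12.4 and 12.9 CPM in WT against 14.2, 13.2 and 12.7 CPM in HepKO (log2 fold change -0.06 ± 0.14, FDR 0.783). The groups overlapped for both ligases, and the difference was within 1 SD of the WT libraries for Znrf3. Both signs turned under library totals, to 0.21 (FDR 0.312) for Rnf43 and 0.45 (FDR 0.0254) for Znrf3, and that of Znrf3 turned without WT replicate 1 (0.07, FDR 0.713).

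Tbx3, a T-box transcription factor of pericentral hepatocytes, lies on chromosome 5 (119670669 to 119684724, plus strand). Levels were 52.0, 46.0 and 34.0 CPM in WT against 27.2, 40.3 and 36.6 CPM in HepKO. WT replicate 3 lay among the HepKO libraries. The log2 fold change was -0.34 ± 0.19 (FDR 0.197) under TMM and turned to 0.17 (FDR 0.499) under library totals. The antisense gene Tbx3os1 shares 1.74% of the Tbx3 exon length and gave 219 to 281 counts in WT libraries against 125 to 154 in HepKO ones. The strand setting of the counting is not given in the sources used here.

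**Figure D1:**
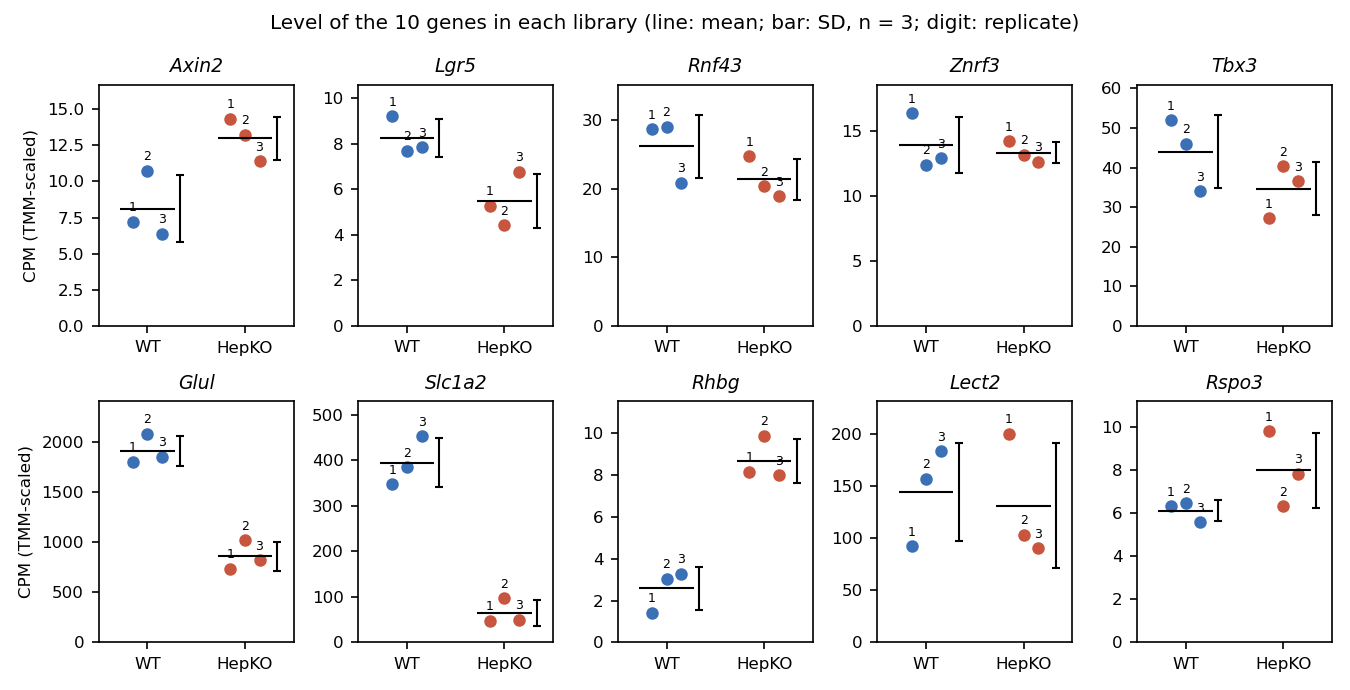
Level of each of the 10 genes in TMM-scaled CPM on linear axes from 0, by group, with 1 point per library labelled by its replicate number, the group mean as a line and the SD (n = 3) as a bar. The groups are apart for Axin2, Lgr5, Glul, Slc1a2 and Rhbg, and overlap for the other 5 genes.

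The pericentral effectors split. Glul and Slc1a2, which serve glutamate and ammonia capture, fell, Rhbg rose, and Lect2 varied more within the groups than between them. The 4 effectors thus held 2 lower and 1 higher call (median -0.64; -0.14 under library totals), beside 18.7% of all genes called lower and 19.5% called higher. These 3 calls also stood without HepKO replicate 1 and under library totals.

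Glul encodes glutamine synthetase, which joins ammonia to glutamate in the innermost pericentral hepatocytes. It lies on chromosome 1 (153899944 to 153909723, plus strand). WT libraries held 1802, 2083 and 1854 CPM of it, and HepKO libraries 736, 1022 and 821 CPM. All HepKO libraries were far below the lowest WT library. Glul fell 2.22-fold (log2 fold change -1.15 ± 0.15, FDR 0.00107), and by 0.64 on the log2 scale under library totals (FDR 0.0105).

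Slc1a2 encodes a glutamate transporter that supplies the same cells with the substrate of glutamine synthetase. It lies on chromosome 2 (102658659 to 102790784, plus strand). The level was 347, 384 and 452 CPM in WT replicates against 47.4, 97.0 and 49.5 CPM in HepKO. HepKO replicate 2 was the highest of its group and still below every WT library. Slc1a2 fell 6.10-fold (log2 fold change -2.61 ± 0.29, FDR 5.25e-04), with a range of -3.03 to -2.44 on the log2 scale when any 1 library was left out.

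Rhbg, an ammonium transporter of pericentral hepatocytes, went the other way. It lies on chromosome 3 (88242874 to 88254709, minus strand). WT libraries gave 42, 109 and 112 counts and HepKO libraries 474, 443 and 314, or 1.42, 3.04 and 3.28 CPM against 8.16, 9.88 and 7.98 CPM. The groups were apart, and Rhbg rose 3.35-fold (log2 fold change 1.74 ± 0.31, FDR 0.00354). Its count is uncertain: in the M21 annotation 61.4% of its 1937 exon bases, in 9 of its 10 exons, are shared on the same strand with Gm38392, which had 5 counts in WT replicate 2 and 0 in the other libraries. How reads in shared exons were counted is not given in the sources used here, and the part of this in the Rhbg result was not tested.

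Lect2 encodes a secreted liver protein and is a known β-catenin target. It lies on chromosome 13 (56542464 to 56548502, minus strand). Levels were 92.1, 157 and 184 CPM in WT against 200, 103 and 90.2 CPM in HepKO. HepKO replicate 1 was the highest of all 6 libraries and HepKO replicate 3 the lowest, so the ranges overlapped almost in full. The log2 fold change was -0.14 ± 0.34 (FDR 0.787) and had no stable sign: it was -0.58 without HepKO replicate 1 (FDR 0.133), 0.09 without WT replicate 3, 0.00436 without HepKO replicate 2, 0.07 without HepKO replicate 3, and 0.37 under library totals.

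Rspo3, the R-spondin of the central vein and of stellate cells, is the signal upstream of the other members. It lies on chromosome 10 (29452416 to 29535867, minus strand). Its WT libraries held 6.32, 6.46 and 5.59 CPM against 9.80, 6.33 and 7.82 CPM in HepKO. HepKO replicate 2 lay within the WT range and HepKO replicate 1 was the highest. The log2 fold change was 0.38 ± 0.20 (FDR 0.164), 0.20 without HepKO replicate 1 (FDR 0.475) and 0.89 under library totals (FDR 0.00691). Markers of central vein endothelium, with Rspo3 among them, summed to 17.5 to 22.4 CPM in WT and 21.7 to 29.1 CPM in HepKO, with 1 of 6 called higher and none at 0 counts in all libraries. That call was lost without HepKO replicate 1. Stellate markers summed to 266 to 398 CPM in WT and 364 to 459 CPM in HepKO, with 2 of 8 called higher (1 without HepKO replicate 1) and none at 0 counts in all libraries. The part of either cell type in the Rspo3 values was not tested.

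**Figure D2:**
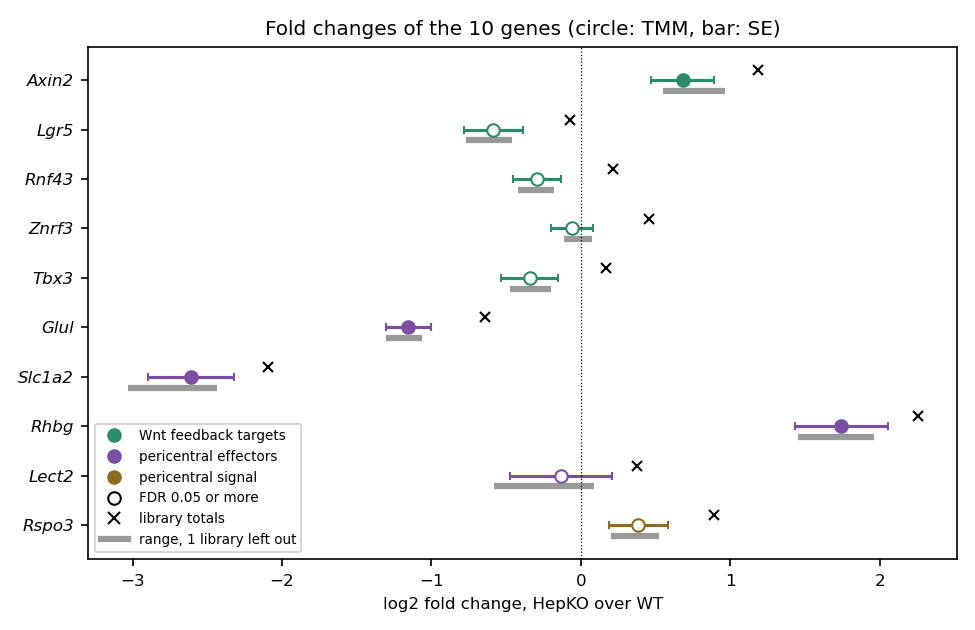
Log2 fold change (HepKO over WT) of the 10 genes, with circles for TMM scaling (filled where FDR is under 0.05, bars SE), crosses for library totals and grey bars for the range when 1 library was left out. Glul, Slc1a2, Axin2 and Rhbg keep their side of 0 throughout, as do Rspo3 and Lgr5, the cross of Lgr5 being near 0. The crosses of Rnf43, Znrf3, Tbx3 and Lect2 lie on the other side from their circles.

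Feedback targets and effectors were then set against each other inside each library, where the scaling cancels. The measure was the log2 ratio of each gene to Glul. The 9 ratios share Glul, which itself fell. The median of the 16050 other tested genes was therefore also higher against Glul in HepKO, by 1.16. Each difference is read against that value. In that reading Glul cancels, so a gene's place above or below the median repeats its fold change relative to all genes. The Axin2 to Glul ratio was -7.96, -7.59 and -8.17 in WT and -5.68, -6.27 and -6.16 in HepKO, a difference of 1.87. Of the 5 feedback targets, Axin2 lay above that median and the other 4 at or below it: the difference was 1.11 for Znrf3, 0.88 for Rnf43, 0.83 for Tbx3 and 0.56 for Lgr5. Groups were apart for each of these except Lgr5, whose HepKO replicate 2 (-7.83) lay within the WT range of -8.07 to -7.60. Among effectors, the ratio of Slc1a2 to Glul was lower by 1.52, from -2.28 ± 0.22 (SD, n = 3) to -3.80 ± 0.35, while those of Lect2 and Rhbg were higher by 0.99 and 2.97, below and above the median of all genes. The Rspo3 ratio was higher by 1.52. The difference of any gene from the median of all genes was not tested here. By an exact 2-sided permutation test the 8 ratios without overlap gave p = 0.1, the smallest that 3 against 3 libraries allow (0.1125 adjusted over 9), and Lgr5 gave 0.2. The 2-sided test cannot reach 0.05 here, and the sign of each of the 9 differences held with any 1 library left out. These p-values, gaps between groups and signs are against 0 and share the Glul values. They therefore cannot set a gene apart from the median of all genes.

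**Figure D3:**
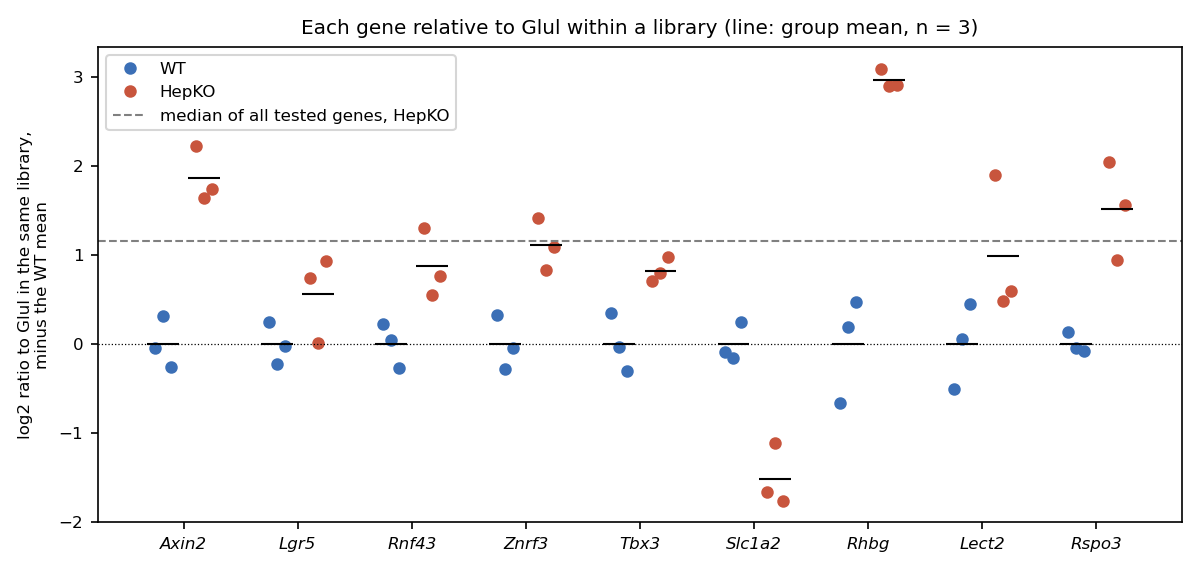
Log2 ratio of each gene to Glul in the same library, drawn as the difference from the WT mean of that gene, with 1 point per library, the group mean as a line and the median of all tested genes in HepKO (1.16) dashed. HepKO means of Axin2, Rhbg and Rspo3 lie above the dashed line, those of Znrf3, Rnf43, Tbx3, Lect2 and Lgr5 between 0 and that line, and that of Slc1a2 below 0.

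Levels per kilobase of exon (CPM divided by exon length) put the effectors Glul and Lect2 at the top of both groups. In WT the order was Glul (576 ± 44.9 CPM per kb, SD, n = 3), Lect2 (157 ± 51.3), Slc1a2 (30.0 ± 4.06), Tbx3 (6.64 ± 1.38) and Rnf43 (3.99 ± 0.703), each apart from its neighbour. Rspo3 (1.98 ± 0.151), Znrf3 (1.76 ± 0.273), Axin2 (1.47 ± 0.419), Rhbg (1.33 ± 0.522) and Lgr5 (0.804 ± 0.0823) followed, each overlapping the one before it except Rspo3, which was apart from Rnf43. In HepKO Glul stood at 259 ± 44.2 CPM per kb and Lect2 at 143 ± 65.5, still apart. Slc1a2 (4.92 ± 2.14) then lay below Tbx3 (5.24 ± 1.02), with overlapping libraries, and Axin2 (2.36 ± 0.269) lay above Znrf3 (1.69 ± 0.102) without overlap. Rhbg is given over its full exon length, shared bases included.

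The genes most like Axin2 and Glul in pattern were found by Pearson's r of log2 CPM over the 6 libraries among 9409 genes of at least 5 CPM, as a description. For Axin2 they were Id1 (r = 0.997), Cdh5 (0.993), Flvcr1 (0.986), Fam13b (0.985) and Pde7a (0.985), and 71 genes reached 0.95. Cdh5, a junction protein of endothelium, had a log2 fold change of 0.74 ± 0.18 (FDR 0.0143), and Id1, an inhibitor of helix-loop-helix factors, one of 0.97 ± 0.29 (FDR 0.0297). With 1 library left out FDR reached 0.0527 for Cdh5 (WT replicate 1; 0.0523 for WT replicate 3) and 0.0927 for Id1 (WT replicate 1), whose call held only without WT replicate 2. For Glul they included Rab5b, Fam47e, Ccnc and Klhl9 (r from 0.995 to 0.997), and 589 genes reached 0.95. These r values rest on 6 points in 2 groups and share the group difference. Sinusoidal and vascular endothelial markers, which include Cdh5, summed to 161 to 201 CPM in WT and 186 to 232 CPM in HepKO, with 2 of 8 called higher, 1 of 8 without HepKO replicate 1, and none at 0 counts in all libraries. Their part in the Axin2 values was not tested.

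Other Wnt targets and feedback genes were mixed. Of 20 listed, 13 were tested, 5 rose and 1 fell, with a median log2 fold change of 0.20 (8 higher, median 0.71, under library totals). Those higher were 2 without WT replicate 3 and 3 without HepKO replicate 2. Beside this and each later list stand the shares of all tested genes, 19.5% called higher and 18.7% lower (46.4% and 5.84% under library totals). Ccnd1, cyclin D1, rose from 9.22, 33.7 and 31.2 CPM to 262, 217 and 199 CPM (log2 fold change 3.19 ± 0.44, FDR 0.00122). Tcf7, a TCF factor, rose from 3.45, 4.29 and 3.92 CPM to 11.7, 8.29 and 9.98 CPM (1.36 ± 0.19, FDR 0.00134). The secreted Dickkopf family member Dkk3 rose by 1.09 ± 0.27 (FDR 0.0160), a call that was lost when WT replicate 3 (0.0503) or HepKO replicate 2 (0.0579) was left out. The next 3 were named after their values were seen, because they complete the calls. Tnfrsf11b, a decoy receptor, rose by 1.04 (FDR 0.0193), with FDR 0.0555, 0.0634 and 0.0719 without WT replicates 1 and 3 and HepKO replicate 3. Lef1, a TCF family factor at 0 to 0.139 CPM in WT and 0.407 to 0.947 CPM in HepKO, rose by 2.98 ± 0.84 (FDR 0.0247), with FDR 0.0832, 0.0840 and 0.0554 without WT replicate 3 and HepKO replicates 1 and 2, and a log2 fold change of 3.73 without WT replicate 2. Notum, a secreted enzyme that inactivates Wnt ligands, fell from 18.3 ± 4.13 to 10.5 ± 2.85 CPM (log2 fold change -0.79 ± 0.23, FDR 0.0279), with FDR 0.0671, 0.111, 0.0856 and 0.0819 without WT replicates 2 and 3 and HepKO replicates 2 and 3, and -0.28 under library totals (FDR 0.327). Both Notum and Axin2 are feedback genes, and each call was lost when certain single libraries were left out.

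Of 22 genes for Wnt ligands, other R-spondins and their secretion, 9 were tested, 3 rose and 1 fell (median -0.11; 4 and 1, median 0.40, under library totals), and 1 was called higher without HepKO replicate 2. All tested genes gave 19.5% higher and 18.7% lower. Wnt5b fell from 7.33, 9.61 and 11.3 CPM to 3.58, 2.34 and 1.83 CPM (log2 fold change -1.86 ± 0.29, FDR 0.00208). Wnt4 rose from 3.07, 1.87 and 2.14 CPM to 5.15, 6.82 and 5.56 CPM (1.31 ± 0.26, FDR 0.00556). Wls, which carries Wnt ligands to the cell surface, rose by 0.73 ± 0.18 (FDR 0.0147, and 0.0540 without HepKO replicate 2). Rspo1, named after its values were seen, rose by 1.44 ± 0.44 (FDR 0.0332), with FDR 0.0622 by limma-voom, 0.0648 and 0.0652 without WT replicates 2 and 3 and 0.0825 and 0.115 without HepKO replicates 2 and 3. The ligands of the central vein, also named after their values were seen, gave no call: Wnt2 stood at 2.01 ± 0.0678 CPM (WT) and 1.86 ± 0.564 CPM (HepKO, FDR 0.808), and Wnt9b had 0.773 ± 0.219 and 0.709 ± 0.559 CPM (FDR 0.925). Their log2 fold changes of -0.11 each turned sign under library totals (0.40 and 0.39) and without HepKO replicate 3 (0.06 and 0.40), as did that of Wnt9b without WT replicate 2 (0.09).

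Among 11 tested receptors of 17 listed, 3 fell and 2 rose (median -0.32; 2 and 4, median 0.19, under library totals), and 5 were called lower without WT replicate 2. The shares over all genes were 18.7% lower and 19.5% higher. The Frizzled receptor Fzd4 fell from 79.0, 94.8 and 91.2 CPM to 45.8, 35.8 and 36.3 CPM (log2 fold change -1.17 ± 0.13, FDR 5.28e-04). Fzd8 fell by 0.93 on the log2 scale (FDR 0.00258), and the co-receptor Lrp6 by 0.64 (FDR 0.00303), without a call under library totals (-0.13, FDR 0.377). Its relative Lrp5 rose by 0.46 (FDR 0.0136, and 0.0516 without HepKO replicate 2). Fzd3, at under 1 CPM in every library, rose by 2.13 ± 0.69 (FDR 0.0416), with FDR 0.0856 by limma-voom, 0.0879 with no filter, 0.0713, 0.102 and 0.144 without WT replicates 1 to 3 and 0.133 and 0.115 without HepKO replicates 1 and 2. Lrp5 and Fzd3 were named after their values were seen.

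The destruction complex and its transcriptional partners moved little. Of 18 tested, 3 were called, all lower (median -0.02), while under library totals 12 were called, all higher (median 0.50 against 0.52 for all genes). Without WT replicate 2 the count called lower was 1. Over all genes 18.7% were called lower under TMM, and 46.4% higher under library totals. Bcl9l, a β-catenin coactivator, fell by 0.76 on the log2 scale (FDR 0.00376) under TMM, against -0.24 (FDR 0.159) under library totals. Apc, a scaffold of the complex, had a log2 fold change of -0.43 ± 0.10 (FDR 0.0132), which was 0.0606 in FDR without WT replicate 2 and turned to 0.08 under library totals. Gsk3a, a kinase of the complex, had -0.27 ± 0.09 (FDR 0.0461), was called in the opposite direction under library totals (0.24, FDR 0.0427), and lost its call with DESeq2 (0.0642), median-of-ratios factors (0.0578), a filter of 1 CPM (0.0552) and no filter (0.128). It gave FDR values of 0.0854, 0.137 and 0.158 as WT replicates 1 to 3 were left out and 0.132 and 0.117 without HepKO replicates 2 and 3. Ctnnb1, the β-catenin gene, chosen after its values were seen, stood at 167 ± 8.33 CPM (WT) and 193 ± 12.4 CPM (HepKO), a log2 fold change of 0.21 ± 0.10 (FDR 0.126), which was 0.72 (FDR 7.63e-04) under library totals.

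**Figure D4:**
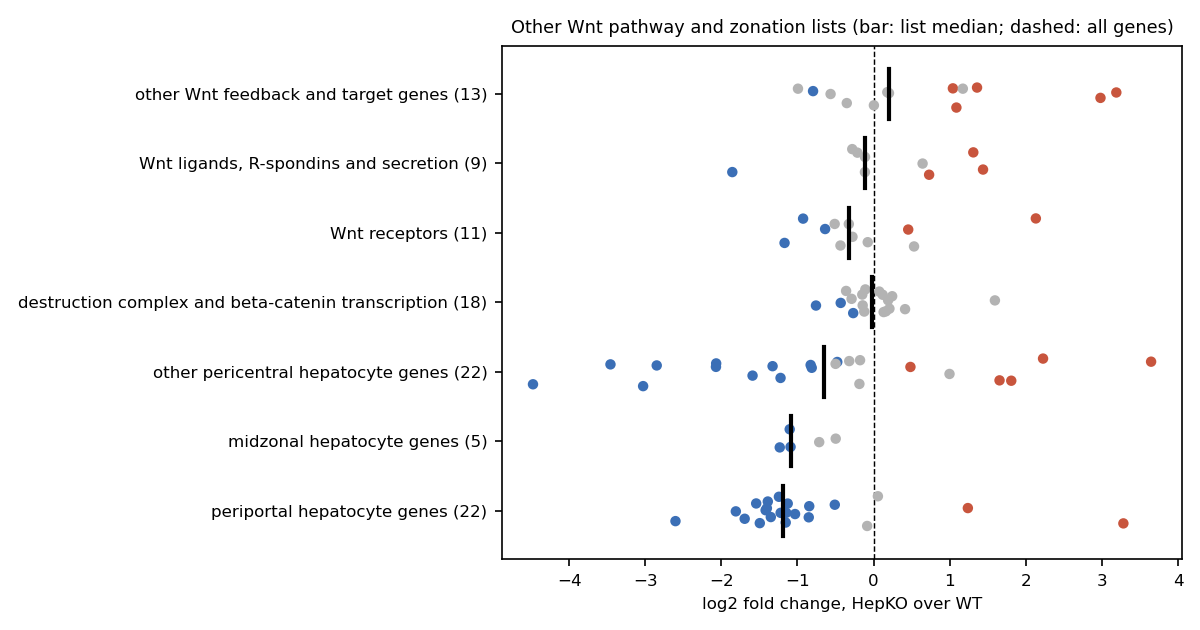
Log2 fold change (HepKO over WT) of each tested gene in 7 lists, with the number tested in brackets, red for called higher, blue for called lower and grey for no call, vertical spread without meaning. Black bars mark list medians, from -1.19 for periportal genes to 0.20 for other Wnt targets, and the dashed line marks the median of all genes at 0.01.

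Other pericentral hepatocyte genes were split like the effectors. Of 22 tested, 12 fell and 5 rose, with a median of -0.66 (12 and 5 also without HepKO replicate 1; 8 and 8 under library totals, median -0.15). Cyp2e1, the ethanol-oxidising cytochrome P450, fell from 11522, 11624 and 15541 CPM to 1203, 1965 and 2202 CPM (log2 fold change -2.85 ± 0.26, FDR 2.79e-04). Oat, ornithine aminotransferase, which feeds glutamate to the cells that hold Glul, fell from 1072, 1683 and 1870 CPM to 164, 241 and 162 CPM (-3.03 ± 0.26, FDR 2.13e-04). Lhpp, a phosphatase, fell by 2.07 on the log2 scale (FDR 1.40e-04). The 5 that rose, named after their values were seen, were Gstm3 (3.65 ± 0.75; 4.96 without WT replicate 2), the dicarboxylate transporter Slc13a3 (2.23 ± 0.28), Cyp2a5 (1.81 ± 0.29), Cyp1a2 (1.66 ± 0.32) and Rnase4 (0.48 ± 0.13, FDR 0.0192, and 0.0640 and 0.0760 without WT replicate 2 and HepKO replicate 3). Gstm3 and Cyp2a5 have close relatives, so their counts are uncertain.

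Genes of the other zones fell as well. Of 22 periportal genes 18 fell and 2 rose (median -1.19; 14 and 2 under library totals, median -0.68), and of 5 midzonal genes 3 fell (median -1.09; 4 without HepKO replicate 1; 2 under library totals, median -0.58). The urea cycle enzymes Asl (log2 fold change -1.69 ± 0.15, FDR 2.54e-04) and Ass1 (-1.39 ± 0.13, FDR 2.79e-04) fell, while Cdh1, E-cadherin, rose from 13.8, 7.19 and 10.8 CPM to 71.0, 122 and 116 CPM (3.28 ± 0.29, FDR 2.36e-04). Ctsc, the remaining periportal gene that rose, was named after its values were seen (1.24 ± 0.21, FDR 0.00314). Of the midzonal genes, Igfbp2 fell by 1.23 (FDR 0.00477), Igf1 by 1.09 (FDR 0.00518) and Cyp8b1 by 1.10 (FDR 0.0144), which had FDR 0.0527 without HepKO replicate 3 and was -0.58 (FDR 0.0964) under library totals. The median of the pericentral list lay between those of all genes and of the periportal list, and the lists were not tested against each other. Beside these lists, 5 of 6 hepatocyte markers were called lower (4 without HepKO replicate 1, 3 under library totals). Called higher were cholangiocyte markers (4 of 7; summed 56.6 to 75.3 CPM in WT and 161 to 586 CPM in HepKO), Kupffer cell and macrophage markers (6 of 7, and 4 without HepKO replicate 1; 151 to 299 and 376 to 691 CPM) and 2 of 6 lymphocyte and neutrophil markers (2.14 to 4.23 and 4.84 to 13.4 CPM), both of the latter neutrophil genes (S100a8 and S100a9, named after their values were seen). No marker was at 0 counts in all libraries. The part of these cells in the results was not tested.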

How the data were processed

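The authors deposited raw counts of reads for each gene. The tools named in the submitters' processing notes are STAR 2.7.11a, bcl2fastq, Subread 2.0.0 with featureCounts, and edgeR 3.40.2, and the genome build is mm10. Neither the gene annotation nor the handling of strand and shared exons is stated there. Of 56350 IDs, 55480 matched GENCODE M21 (GRCm38, the mm10 assembly) without version. Exon lengths, overlaps and gene coordinates came from M21, and upstream windows from RefSeq.

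Genes were filtered with filterByExpr (16051 kept), scaled by TMM and tested 2-sided with edgeR 4.0.16 (quasi-likelihood, R 4.3.3), adjusted over all genes. SE was the log2 fold change over the square root of F. Depth is the total count per library. Alternatives were DESeq2 1.42.0, limma-voom 3.58.1, other scalings and filters, a replicate block, other thresholds and omission of each library. A fit without HepKO replicate 1 under library totals was added after seeing the data.

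The members and lists were chosen with earlier results of these data known. Named were all members, Atg14, the 3 tested genes of smallest p in each pathway and zonation list (marker lists are given as counts and sums) and the 5 genes most like Axin2 and Glul, of which 1 is not reported here. Others named are marked as chosen after their values were seen.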

Additional observations from a re-analysis of the deposited data

How the results depend on the processing

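The count of members called was 4, and 3 to 6 over all settings (6 under library totals), and that of the 7 other lists was 58, and 40 to 65. The 6131 genes called became 3444 at an FDR under 0.01 and 2985 when a log2 fold change of 1 or more in size was also asked. Calls and signs of Glul, Slc1a2 and Rhbg held under every setting run.

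The Axin2 log2 fold change was 0.55 to 0.97 with any 1 library left out and kept its sign, but lost its call in 5 of those 6 fits. Lgr5 was called with DESeq2 (-0.57), limma-voom (-0.61) and no filter (-0.60), and ranged from -0.77 to -0.46 with a library left out. Under library totals, signs turned for Rnf43 (0.21; 0.10 also without HepKO replicate 1), Znrf3 (0.45; 0.41), Tbx3 (0.17; 0.32), Lect2 (0.37), Wnt2 (0.40; 0.14), Wnt9b (0.39; 0.18), Apc (0.0795; 0.17) and Gsk3a (0.24; 0.20), and Rspo3 was called (0.89; 0.72). This scaling raises all folds together, as the median of all genes shows (0.52). With a library left out, ranges were -0.11 to 0.0719 for Znrf3, -0.58 to 0.0872 for Lect2 (0.00436 without HepKO replicate 2 and 0.07 without HepKO replicate 3), -0.38 to 0.0635 for Wnt2 and -0.61 to 0.40 for Wnt9b (0.0931 without WT replicate 2), whose signs turned. The cause of the other changes was not tested.

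Same-numbered WT and HepKO libraries did not deviate together from their group means (correlations of -0.125, -0.068 and 0.002). With 3 libraries a group this cannot show whether the samples were paired. With the replicate block 5071 genes were called and 4 members, and log2 fold changes were 0.71 for Axin2 and -0.60 for Lgr5. Among the other genes named, 6 passed the threshold in the fit without the block alone, with FDR under the block of 0.0724 for Notum, 0.0815 for Lef1, 0.0576 for Tnfrsf11b, 0.0657 for Rspo1, 0.0593 for Fzd3 and 0.0847 for Gsk3a. The block changed no call of the 10 members.

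Counts of 42 to 112 for Rhbg in WT limit its precision. With 3 libraries a group, no 2-sided permutation test of a single value can go below 0.1.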
